A study of Mus musculus with 32 samples.

Results

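The 92 genes described here encode the nuclear part of the mitochondrial oxidative phosphorylation machinery. They were chosen by symbol from a count table of 33000 genes: symbols that begin with Ndufa, Ndufb, Ndufc, Ndufs, Ndufv, Uqcr, Cox4 to Cox8 or Atp5, together with Sdha, Sdhb, Sdhc, Sdhd and Cyc1. Of 93 symbols that met this rule, Cox8c had 0 counts in every library and was left out. The 92 genes fall into 36 subunits of complex I, 4 of complex II, 9 of complex III, 19 of complex IV and 15 of complex V, with 7 assembly factors of complex I (Ndufaf1 to Ndufaf7). The remaining 2, Atp5s and Atp5sl, carry the Atp5 name but are not structural subunits of the ATP synthase. Ndufa4 and its relative Ndufa4l2 were counted with complex IV, where the Ndufa4 protein is now placed in spite of its name.

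Oxidative phosphorylation takes place in the inner mitochondrial membrane. Complex I oxidises NADH and complex II oxidises succinate, complex III passes their electrons through cytochrome c to complex IV, which reduces oxygen, and the proton gradient built up on the way drives ATP synthesis by complex V. Complex II is encoded by nuclear genes only, whereas the other complexes also hold subunits made from the mitochondrial genome. Neurons rely on this pathway for most of their ATP, and several complex IV subunits exist as isoform genes with expression restricted to muscle, heart, testis or hypoxic tissue.

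The RNA came from the frontal cortex of mice aged 3 months, either wild-type (WT) C57BL/6 or homozygous for the GFAP-IL6 transgene, in which the GFAP promoter drives interleukin-6 in astrocytes. Libraries were made by 3'Pool-seq, an oligo-dT method that sequences the 3' ends of polyadenylated transcripts, with 50, 10, 1 or 0.5 ng of total RNA taken into reverse transcription. The 32 libraries made 8 groups of 4, a group being 1 genotype at 1 input. The labels number the replicates from 1 to 4 but do not say whether equal numbers mark the same animal, so p-values measure the spread between these libraries, part of which may be technical.

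Library totals ran from 1071895 to 7538356 counts at 50 ng, from 1064514 to 9840302 at 10 ng, from 261378 to 2800270 at 1 ng and from 295022 to 2722389 at 0.5 ng. Il6 itself had 0 to 1 counts in WT and 4 to 22 counts in GFAP-IL6 libraries at 50 ng, but 0 counts in every library at 0.5 ng and 13 counts in the library labelled WT replicate 3 at 1 ng, so its CPM (counts per 1000000 counts of a library) separated the genotypes at 50 ng and at 10 ng, where GFAP-IL6 libraries had at least 1.88 CPM and WT libraries at most 0.758 CPM, and not at 1 or 0.5 ng. C4b, a complement gene of reactive glia, separated the genotypes at all 4 inputs, with at least 18.3 CPM in every GFAP-IL6 library and lower values in all WT libraries of the same input. GFAP-IL6 replicate 4 at 50 ng stood apart for the genes described here. Of the 74 with a mean above 100 CPM at 50 ng, 73 had their lowest value of all 8 libraries in it, at a median of 0.638 of the median of the other 7 libraries. The replicate 4 library of GFAP-IL6 was the lowest for 57 of the 74 at 10 ng, 16 at 1 ng and 14 at 0.5 ng. Genotype results are therefore given with and without it.

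At 50 ng the 92 genes together took 4.84% ± 0.232 (SD, n = 4) of the counts in WT libraries and 4.29% ± 0.816 (SD, n = 4) in GFAP-IL6 libraries. The median gene was at 383 CPM over the 8 libraries, 74 genes were above 100 CPM and 8 were under 10 CPM. Levels below are CPM of 3' end counts at 50 ng, given as mean ± SD over 8 libraries and not divided by transcript length, since each transcript is primed at its poly(A) tail. Complex IV held the genes with the highest levels and also those with the lowest.

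Among complex IV subunits, Cox4i1, the ubiquitous form of subunit 4, was at 2462 ± 375 CPM and Ndufa4 at 2167 ± 319 CPM. Cox6a1 followed at 1957 ± 237 CPM and Cox8a at 1679 ± 229.8 CPM. Cox7a2, Cox6b1 and Cox7b were at 1042 ± 142 CPM, 986 ± 131 CPM and 838 ± 127 CPM. Cox7a2l, a relative of subunit 7a known as a supercomplex factor, was at 190.3 ± 31.3 CPM. These ubiquitous forms stood far above the isoforms of the same subunits that are known from other tissues. Cox6a2, the heart and skeletal muscle form of subunit 6a, was at 44.0 ± 8.02 CPM and Cox7a1, the muscle form of subunit 7a, at 6.57 ± 2.76 CPM. Cox6b2 and Cox7b2, known from testis, were at 3.22 ± 1.25 CPM and 1.92 ± 1.09 CPM, and Cox8b, the muscle form of subunit 8, was at 1.52 ± 1.12 CPM. Ndufa4l2 and Cox4i2, both known as hypoxia-responsive forms, had means under 1 CPM: Ndufa4l2 was seen in 3 of the 8 libraries at 50 ng, and Cox4i2 had 0 counts in all 8, where a count of 0 allows up to 2.80 CPM in the shallowest library (3 counts).

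Cox6a2 was the one muscle-type isoform at a clear level in this cortex, and it was seen in each of the 32 libraries. At 50 ng its WT values were 49.8, 42.1, 55.4 and 44.8 CPM and its GFAP-IL6 values 42.3, 37.3, 50.5 and 30.1 CPM. At 10 ng they were 61.9, 61.4, 76.0 and 55.0 CPM in WT and 55.9, 46.0, 59.7 and 50.6 CPM in GFAP-IL6 libraries. The groups overlapped at both inputs. The summed share of 4 striated muscle markers was 0.00271% to 0.00569% of counts at 50 ng, in CPM a sum of similar size to Cox6a2 alone. The part of muscle transcripts in the Cox6a2 counts was not tested. The 3' end of Cox6a2 overlaps Itgad on the opposite strand, and whether the counting used strand is not given in the sources used here.

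**Figure D1:**
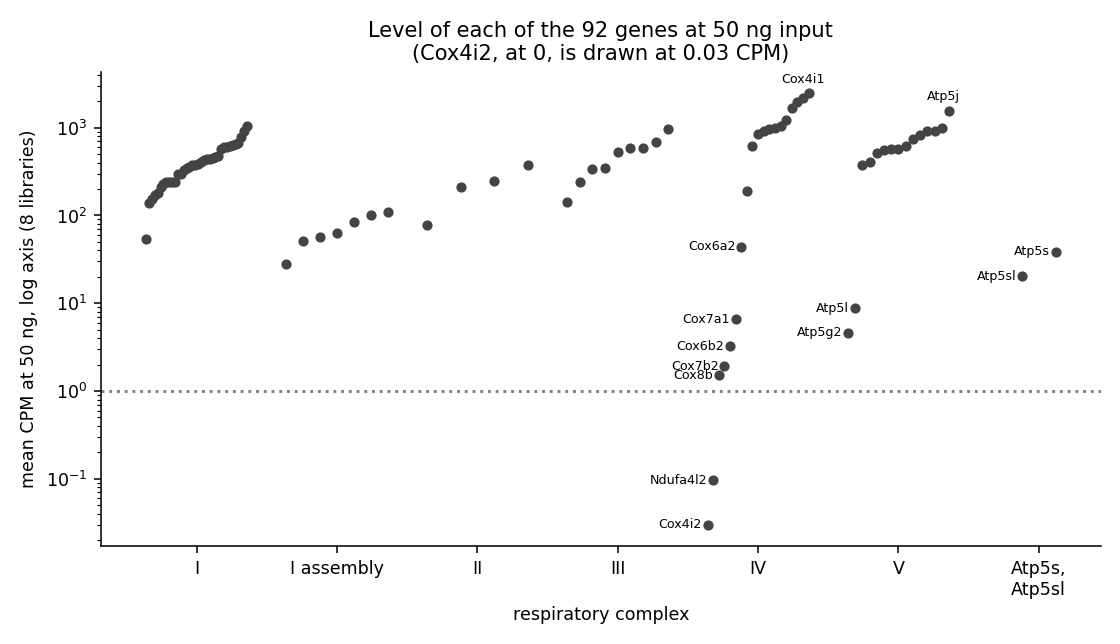
Mean level of each of the 92 genes over the 8 libraries at 50 ng input (vertical axis, CPM, log scale) by complex (horizontal axis, genes of a complex ordered by level, 1 point per gene). Complex IV spans the widest range, from Cox4i1 at 2462 CPM down to Ndufa4l2 at 0.0966 CPM and Cox4i2, which is at 0 and drawn at the foot of the log axis; the dotted line marks 1 CPM.

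Complex V ranged from Atp5j, coupling factor 6, at 1568 ± 320.3 CPM down to Atp5g2 at 4.63 ± 1.53 CPM. The catalytic subunits Atp5b and Atp5a1 were at 987 ± 145 CPM and 815 ± 101 CPM. Atp5g1, Atp5g2 and Atp5g3 encode the same mature c subunit of the membrane ring, and Atp5g3 gave most of their counts, at 918 ± 103 CPM against 374 ± 59.3 CPM for Atp5g1. The low value of Atp5g2 has a limit on the counting side: 98.3% of the 70-base windows in the last 300 bases of its transcript also occur in annotated copies elsewhere, where reads may be lost or split. The same holds for Atp5l (subunit g), named after its value was seen, which was at 8.77 ± 1.89 CPM with 62.8% of windows shared with 9 pseudogenes.

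Complex III was led by Uqcrh, the hinge protein, at 961 ± 104 CPM and Uqcr10 at 691 ± 116 CPM. Cytochrome c1 (Cyc1) was at 336 ± 67.8 CPM, the Rieske iron-sulfur protein (Uqcrfs1) at 351 ± 65.5 CPM and the core protein Uqcrc1 lowest at 144 ± 28.7 CPM. In complex I the accessory subunits Ndufb9 and Ndufa5 were highest, at 1057 ± 159.6 CPM and 909.7 ± 130.0 CPM. The nuclear core subunits named here, from the part of the complex that carries the flavin and the iron-sulfur clusters, ranged from Ndufv2 at 574 ± 121 CPM and Ndufs7 at 439 ± 75.0 CPM through Ndufv1, Ndufs8 and Ndufs3, all between 211 and 244 CPM, to Ndufs1 at 153 ± 15.9 CPM. Ndufb4 was the lowest complex I subunit at 53.9 ± 13.3 CPM. The assembly factors of complex I, needed in small amounts to build it, were all at or below 110.1 CPM, with Ndufaf2 and Ndufaf3 highest and Ndufaf6 lowest at 28.3 ± 7.26 CPM. In complex II the flavoprotein Sdha was at 379.7 ± 50.4 CPM, Sdhb at 248 ± 50.2 CPM, and the membrane anchors Sdhd and Sdhc at 209 ± 46.0 CPM and 76.9 ± 6.86 CPM.

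Promoter sequences, 250 bases before to 50 after the annotated start, were found by symbol for 74 of the 92 genes in RefSeq (GRCm38.p6). The motif of nuclear respiratory factor 1 (NRF1), a transcription factor known to bind promoters of respiratory chain genes, was searched on both strands as GCGCA, any base, then GCGC. It occurred in 18 of the 74 promoters (24.3%), against 6.60% of 17491 promoters of the table. The ETS motif CCGGAAG occurred in 21.6% against 11.9%, and the SP1 motif GGGCGGG in 33.8% against 34.0%. Member promoters held a median of 19.5 CG pairs and all 17491 promoters held 13, and the part of this difference in the motif shares was not tested. The windows below are shown because they belong to the 4 genes that hold an NRF1 match among those called in the input comparison described later. No match occurred in the promoters found for other called genes, Cox5a, Cox6b1, Cox7c, Atp5d, Atp5e, Atp5g1, Atp5j2, Ndufa3, Ndufab1, Ndufb2, Ndufc1 and Ndufc2. A relation of the motif to the input change was not tested. Each window is written along the strand given, with the motif in capitals.
Atp5k: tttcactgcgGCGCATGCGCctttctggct
Cox6a1: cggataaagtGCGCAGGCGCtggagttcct
Cox6a1: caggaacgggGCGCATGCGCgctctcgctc
Ndufb4: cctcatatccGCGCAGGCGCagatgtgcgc
Ndufb4: ccttgtgcgcGCGCAGGCGCacttcctgag
Ndufb4: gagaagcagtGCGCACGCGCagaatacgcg
Ndufs5: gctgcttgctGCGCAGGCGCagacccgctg
In the same order, the windows lie at chr5:108434430-108434459 (minus strand), chr5:115349056-115349085 (minus strand), chr5:115349101-115349130 (minus strand), chr16:37654371-37654400 (minus strand), chr16:37654428-37654457 (minus strand), chr16:37654540-37654569 (minus strand) and chr4:123718265-123718294 (minus strand). Ndufb4 held 3 matches, and Cox6a1 held 2. A match is a description of these letters and not evidence of binding.

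The genotype comparison asks whether the astrocytic interleukin-6 transgene goes with a change in these genes. At every input most of the 92 genes were a little lower in GFAP-IL6 than in WT cortex, but no single gene passed the test at any input. The median log2 fold change of the tested genes was -0.21, -0.17, -0.12 and -0.15 from 50 down to 0.5 ng. Without GFAP-IL6 replicate 4 the median at 50 ng was -0.05.

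At 50 ng, 85 of the 88 tested genes had a log2 fold change below 0, as had 50.4% of all 11773 genes tested. None was called by edgeR's quasi-likelihood test at a Benjamini-Hochberg adjusted p under 0.05, a rule that called 0.28% of all genes, none was under an unadjusted 0.05 (5.63% of all genes were), and DESeq2 called 0. At 10 ng it was 84 of 89 (all genes 49.6%), with 0 called by edgeR or DESeq2 (0.332% of all genes by edgeR) and 5 under an unadjusted 0.05 (all genes 7.48%), all lower. At 1 ng it was 66 of 84 (all genes 50.4%), with 0 called by either tool (0.0323% of all genes) and 3 under an unadjusted 0.05 (all genes 3.59%). At 0.5 ng it was 64 of 84 (all genes 50.8%), with 0 called by either tool (0.0117% of all genes) and 2 under an unadjusted 0.05 (all genes 2.87%). The numbers tested differ because genes with low counts were filtered in each comparison.

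By complex, the medians at 50 ng lay close together, at -0.20 for complex I (36 of 36 lower), -0.17 for complex II (3 of 4), -0.21 for complex III (9 of 9), -0.24 for complex IV (15 of 15) and -0.21 for complex V (14 of 15). Without GFAP-IL6 replicate 4 they were -0.05 (27 of 36 lower), 0.01 (2 of 4), -0.05 (7 of 9), -0.12 (14 of 15) and -0.08 (13 of 15) in the same order. At 0.5 ng complex V had 13 of 13 and complex IV 11 of 13 tested genes lower, against 26 of 36 in complex I, and without that replicate 10 of 13, 11 of 13 and 26 of 36. The inputs were made from cortex RNA of the same 2 genotypes and may share animals, so the 4 comparisons are not independent of each other. In bulk tissue, fewer cells of a type and less RNA per cell cannot be told apart.

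**Figure D2:**
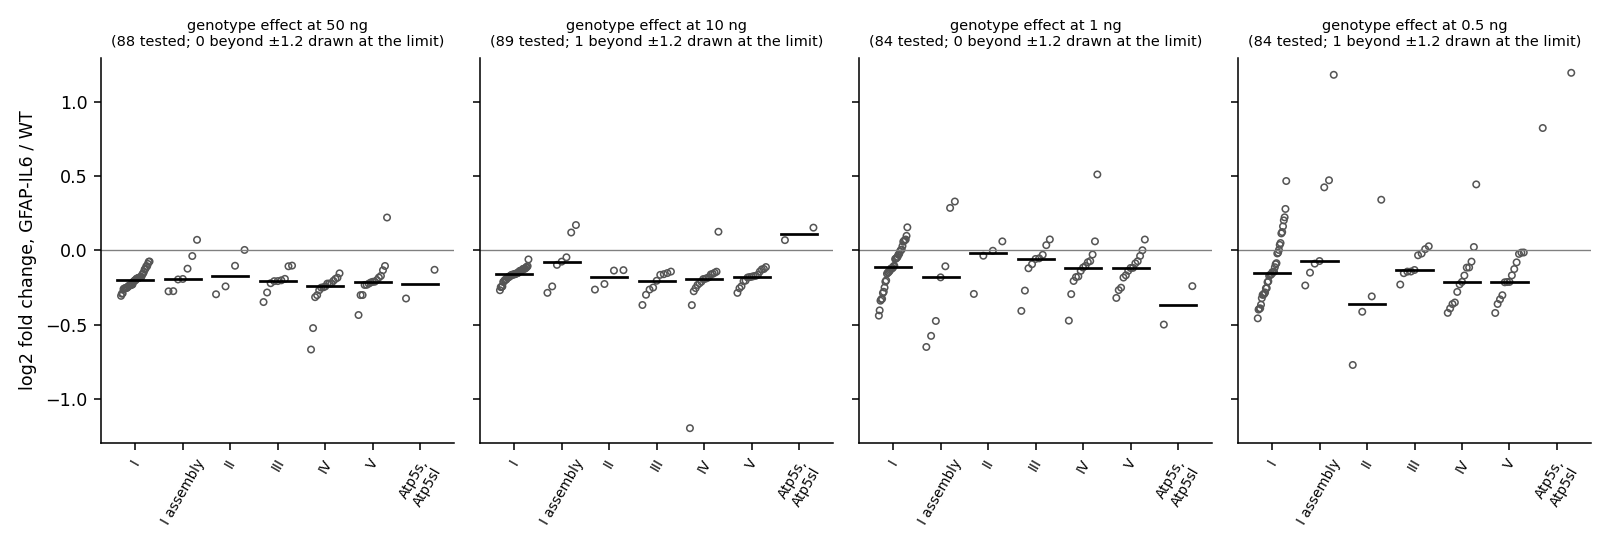
Log2 fold change of GFAP-IL6 over WT (vertical axis) for each tested gene, by complex (horizontal axis), in 1 panel per input; each circle is a gene, the bar is the median of the complex and genes beyond the axis are drawn at its limit. At 50 ng 85 of 88 circles lie below 0, no gene was called in any panel, and the spread between genes widens at 1 and 0.5 ng.

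Transcript length moved with the genotype difference and is given here because these genes are short: the annotated principal transcript had a median of 892 bases in the 92 genes and 2589 bases in all 21409 genes with a length. Across all 11366 genes tested at 50 ng that had a length, Spearman's rho between length and log2 fold change was 0.463, a description across genes of the same libraries. The 961 other genes with transcripts up to 1200 bases had a median log2 fold change of -0.18 and 82.6% of them were lower in GFAP-IL6, close to the -0.22 of the 57 oxidative phosphorylation genes of that length. Without GFAP-IL6 replicate 4, rho across all genes was 0.00366 and the medians were -0.01 for the other short genes and -0.05 for the short oxidative phosphorylation genes. At 10 ng, rho was 0.346, and the medians of short genes were -0.12 for the others and -0.17 for these. At 1 and 0.5 ng rho was 0.1005 and 0.0858. At 0.5 ng the short oxidative phosphorylation genes had a median of -0.15 against -0.09 for the other short genes, and -0.16 against -0.10 without GFAP-IL6 replicate 4. Within the 88 tested genes themselves rho with length was 0.0145 at 50 ng. The part of length or of RNA quality in the genotype difference was not tested.

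Without GFAP-IL6 replicate 4 the lower genes numbered 69 of 88, 82 of 90, 59 of 84 and 57 of 84 from 50 down to 0.5 ng, with medians of -0.05, -0.11, -0.08 and -0.14. The direction stayed the same at each input, and the size fell most at 50 ng. Among markers of other cell types at 50 ng, the summed share of 5 endothelial markers was 0.00910% to 0.0113% in WT and 0.0153% to 0.0178% in GFAP-IL6 libraries (3 of 3 tested higher, 0 called), and that of 6 pericyte markers was 0.0114% to 0.0129% against 0.0156% to 0.0195% (6 of 6 higher, 0 called). The share of 5 inhibitory neuron markers was 0.117% to 0.126% against 0.0908% to 0.114% (3 of 5 lower, 0 called), and that of 5 neuronal markers was 0.634% to 0.716% against 0.596% to 0.681% (3 of 5 lower, 0 called). That of 5 cortical excitatory neuron markers was 0.0406% to 0.0428% against 0.0399% to 0.0458%, with GFAP-IL6 replicate 4 the highest. The shares of the astrocyte and oligodendrocyte lists overlapped between genotypes. That of 5 microglia markers was 0.0301% to 0.0343% in WT and 0.0324% to 0.0515% in GFAP-IL6 libraries, with replicate 4 the lowest. Without that replicate the GFAP-IL6 range was 0.0375% to 0.0515%, above all WT libraries. The share of 4 reactive astrocyte markers was 0.00359% to 0.00557% against 0.0111% to 0.0185% (4 of 4 higher, 2 called, Gfap and C4b). That of 4 choroid plexus markers was 0.340% in WT replicate 3 and at most 0.0348% in the other 7 libraries (2 tested, 0 called). The part of these markers in the result was not tested.

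Cox7b, a small subunit of complex IV, had the lowest unadjusted p at 50 ng. Its WT values there were 965, 874, 877 and 954 CPM and its GFAP-IL6 values 848, 833, 792 and 558 CPM. All 4 GFAP-IL6 libraries lay below all 4 WT libraries, replicate 4 by far the lowest, and the log2 fold change was -0.32 ± 0.16 (SE) with an adjusted p of 0.835 by edgeR's quasi-likelihood test. At 0.5 ng the WT values were 906, 947, 817 and 864 CPM and the GFAP-IL6 values 723, 797, 628 and 686 CPM, again without overlap. At 1 ng the groups overlapped, with a log2 fold change of -0.03 ± 0.18 (SE).

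Cox6a1, one of the most abundant genes of the 92, gave the lowest unadjusted p at 0.5 ng. WT libraries held 2611, 2718, 2641 and 2536 CPM and GFAP-IL6 libraries 2279, 2393, 2176 and 1989.8 CPM at that input. At 1 ng WT libraries held 2295, 2055, 2275 and 2496 CPM and GFAP-IL6 libraries 2042, 1618, 1854 and 1979 CPM. The groups did not overlap at either input, with log2 fold changes of -0.28 ± 0.13 (SE) and -0.29 ± 0.12 (SE) and adjusted p of 1 and 0.997 by the same test. Cox7c, another small complex IV subunit, was also lower without overlap: at 1 ng WT libraries held 922, 898, 1056 and 1126 CPM and GFAP-IL6 libraries 739, 494, 817 and 842 CPM, a log2 fold change of -0.47 ± 0.16 (SE), adjusted p = 0.997. Nearly all 3' windows of Cox7c (99.1%) also occur in annotated pseudogenes, so its counts are uncertain.

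Counting genes whose 4 GFAP-IL6 values all lay below the 4 WT values, 2 were found at 50 ng (Ndufs4 and Cox7b), where 1.16% of all genes did so. There were 3 at 10 ng (Uqcrc2, Cox7b and Atp5k), against 1.34% of all genes. There were 4 at 1 ng (Ndufa9, Cox6c, Cox7c and Cox6a1), against 1.39%, and 5 at 0.5 ng (Atp5d, Cox7c, Cox7b, Cox6a1 and Sdhc), against 1.34%. None of the tested genes lay above WT in all 4 GFAP-IL6 libraries at any input, where 2.17%, 2.77%, 1.68% and 1.47% of all genes did from 50 down to 0.5 ng. Ndufa9 and Cox6c were named after their values were seen.

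In complex III, cytochrome c1 was named for its p at 50 ng, which was not under an unadjusted 0.05, and the core proteins for theirs at 10 ng, which were. Cyc1 at 50 ng was at 396, 349.8, 383 and 359 CPM in WT and 353, 302, 364 and 183 CPM in GFAP-IL6 libraries. Replicates 2 and 4 of GFAP-IL6 lay below the WT range, replicate 4 far below it, and the log2 fold change was -0.35 ± 0.19 (SE), adjusted p = 0.835 by edgeR. Uqcrc2 at 10 ng was at 278, 256, 309 and 299.96 CPM in WT and 225, 230.2, 246 and 247 CPM in GFAP-IL6 libraries, which did not overlap, with a log2 fold change of -0.30 ± 0.13 (SE), adjusted p = 0.613 by edgeR. The 3' end of Uqcrc2 overlaps Pdzd9 on the opposite strand. The partner core protein Uqcrc1 had -0.37 ± 0.16 (SE) there. Among the catalytic subunits of complex V, Atp5a1 had log2 fold changes of -0.21, -0.17, -0.32 and -0.21 from 50 to 0.5 ng, and Atp5b -0.21, -0.13, -0.04 and -0.02.

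Cox8b had the lowest p of the 92 genes at 10 ng, at very low counts. Its WT values at 10 ng were 3.29, 12.5, 11.4 and 1.07 CPM and its GFAP-IL6 values 0.246, 0.939, 3.57 and 0.305 CPM, a log2 fold change of -2.40 ± 0.77 (SE), adjusted p = 0.336 by edgeR. It was called without GFAP-IL6 replicate 3. At 0.5 ng it was seen in 1 of 8 libraries, a GFAP-IL6 library.

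As a share of all counts, the 92 genes together and complex IV separated the genotypes at the lowest input. At 0.5 ng the 92 genes took 5.42, 5.14, 5.47 and 5.10% in WT libraries and 4.79, 4.91, 5.08 and 4.71% in GFAP-IL6 libraries. Complex IV took 1.77, 1.76, 1.70 and 1.72% in WT libraries and 1.59, 1.56, 1.51 and 1.54% in GFAP-IL6 libraries, which did not overlap. Complex V overlapped only through GFAP-IL6 replicate 3, at 1.25% against at least 1.24% in WT. Complexes I and III overlapped. At 50 ng complex IV took 1.66, 1.52, 1.64 and 1.62% in WT and 1.58, 1.47, 1.54 and 1.05% in GFAP-IL6 libraries, which overlapped. Without replicate 4 the GFAP-IL6 mean at 50 ng was 1.53% ± 0.0543 (SD, n = 3) against 1.61% ± 0.0604 (SD, n = 4) in WT. Complex II showed no such separation, at 0.0880% ± 0.0212 in WT and 0.0806% ± 0.00995 in GFAP-IL6 libraries at 0.5 ng (SD, n = 4). One of its genes, the anchor subunit Sdhc, did not overlap at 0.5 ng, with 93.1, 132, 155 and 89.7 CPM in WT and 72.4, 54.2, 86.7 and 62.4 CPM in GFAP-IL6 libraries and a log2 fold change of -0.77 ± 0.41 (SE), adjusted p = 1 by edgeR.

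**Figure D3:**
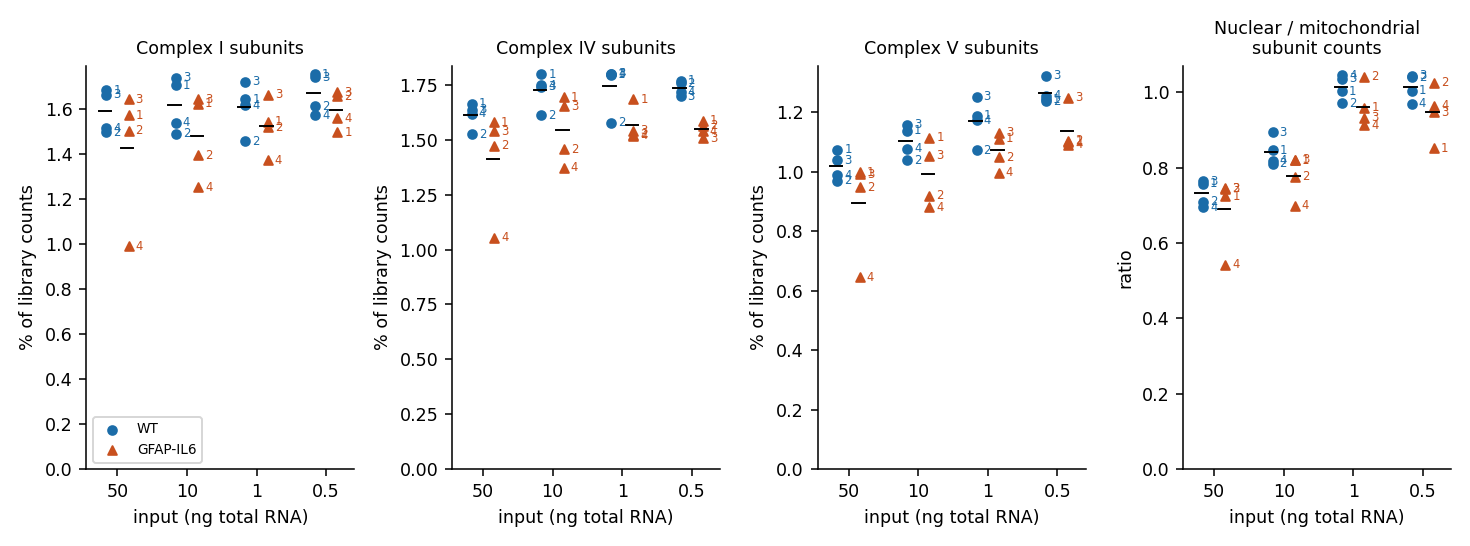
Share of library counts (vertical axes, percent) on subunits of complexes I, IV and V, and the ratio of counts on nuclear subunits to counts on mitochondrially encoded subunits, by input (horizontal axis, ng of total RNA); each symbol is a library (circles WT, triangles GFAP-IL6) with its replicate number, and bars are means of 4 libraries. GFAP-IL6 replicate 4 at 50 ng is the lowest library in each panel, complex IV does not overlap between genotypes at 0.5 ng, and the complex V share and the ratio are higher at 1 and 0.5 ng than at 50 ng.

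The input comparison asks how far lowering the RNA from 50 ng alters the measurement of the same tissue, with genotype as a covariate and 8 libraries per input. The 92 genes nearly kept their order: Spearman's rho between their mean CPM at 50 ng and at 10, 1 and 0.5 ng was 0.995, 0.985 and 0.979 across the 92 genes, which share their libraries. Of the 74 genes above 100 CPM, 74, 69 and 64 had mean CPM within 0.5 log2 units of 50 ng at 10, 1 and 0.5 ng. Within that order, small subunits of complexes V, IV and I rose as the input fell, and 1 complex I subunit, Ndufs5, fell. All 3 comparisons share the 50 ng libraries.

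At 10 ng, 0 of 90 tested genes were called by edgeR or by limma voom and 2 (Atp5k and Atp5e, both higher) by DESeq2, with 0.0% of all genes called by edgeR. There were 12 genes under an unadjusted 0.05, of which 1 was lower, where 4.15% of all genes were under it. At 1 ng, 9 of 87 tested genes were called higher and 1 lower, where edgeR called 0.779% of all 11290 genes higher and 0.425% lower. At 0.5 ng, 13 of 88 were called higher and 1 lower, against 0.947% and 1.6% of all 11406 genes. The median log2 fold changes of the tested genes were 0.08, 0.10 and 0.14 at 10, 1 and 0.5 ng, where those of all genes were 0.00, -0.02 and -0.07. Without GFAP-IL6 replicate 4, whose 50 ng library was low for these genes, they were 0.04, 0.03 and 0.07, while 12 genes were called higher and 2 lower at 1 ng, and 13 higher and 2 lower at 0.5 ng. Leaving out 1 replicate number of 1 genotype at a time gave 6 to 14 called genes at 1 ng, with 6 when any of WT replicates 1 to 4 was left out, and 8 to 15 at 0.5 ng, with 8 or 9 without WT replicate 1, 2 or 4 or GFAP-IL6 replicate 1 or 3. The other genes with transcripts up to 1200 bases had medians of 0.10 at 1 ng and 0.10 at 0.5 ng, close to the 0.10 and 0.14 of the oxidative phosphorylation genes of that length.

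The medians were not equal between complexes. At 0.5 ng the median log2 fold change against 50 ng was 0.37 in complex V (5 of 15 called, all higher), 0.14 in complex IV (4 of 15 called, all higher), 0.18 in complex III (0 of 9 called), 0.12 in complex I (5 of 36 called, 4 higher) and 0.03 in complex II (0 of 4 called). The 7 core subunits of complex I had a median of -0.21, with 6 of 7 below 0 and 0 called. At 1 ng the medians were 0.23, 0.17, 0.25, 0.05 and -0.06 in the same order. These differences between complexes were not tested.

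**Figure D4:**
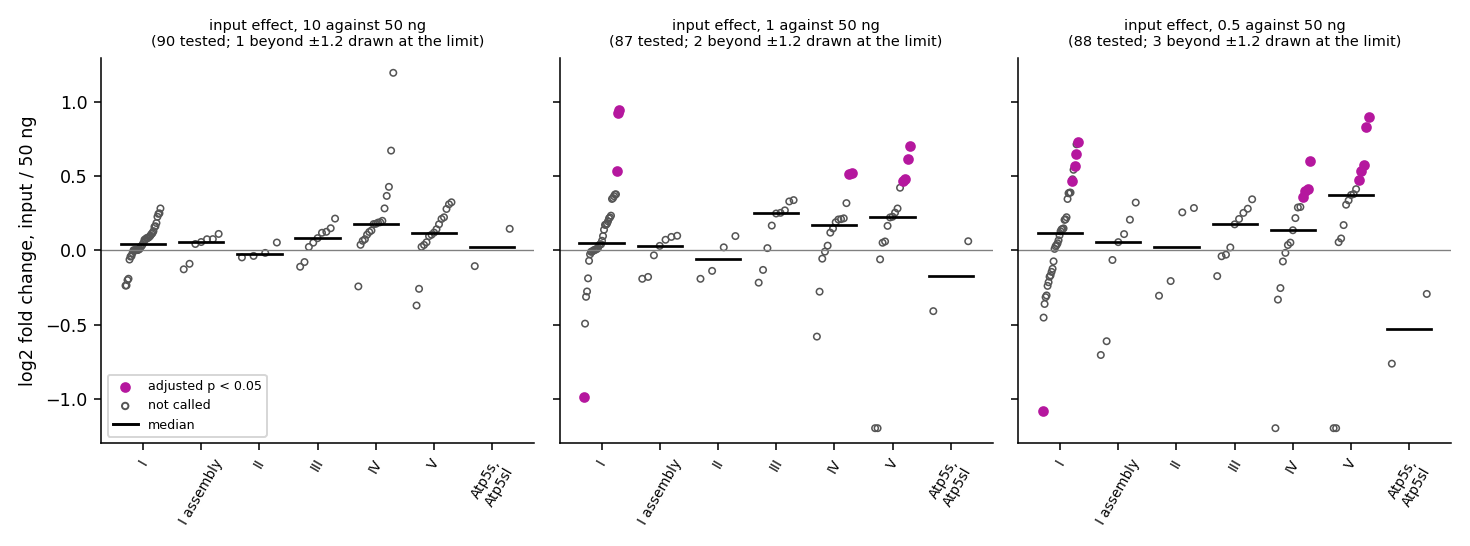
Log2 fold change of each lower input over 50 ng (vertical axis) for each tested gene, by complex (horizontal axis), in 1 panel per input; filled points were called at an adjusted p under 0.05 by edgeR, bars are medians and genes beyond the axis are drawn at its limit. In these fits without a block by replicate number, no gene was called at 10 ng. At 1 ng 9 were called higher and 1 lower, and at 0.5 ng 13 higher and 1 lower, the lower one being Ndufs5 both times.

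Atp5k, subunit e of ATP synthase (chr5:108433244-108434448, minus strand, GRCm38), changed most clearly. Over the 8 libraries it ran from 594 through a median of 751 to 826 CPM at 50 ng and from 775 through a median of 939.6 to 1002 CPM at 10 ng. At 1 ng it ran from 979.5 through a median of 1169 to 1291 CPM, and at 0.5 ng from 1078 through a median of 1236 to 1462 CPM. In both genotypes the group means stepped up with each drop in input, and all 8 libraries at 1 ng and at 0.5 ng lay above all 8 at 50 ng. The log2 fold changes against 50 ng were 0.33 ± 0.09 (SE), 0.71 ± 0.09 (SE) and 0.83 ± 0.10 (SE), with adjusted p of 0.662, 3.08e-05 and 1.30e-04 by edgeR's quasi-likelihood test. Its promoter window is the first of those printed above.

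Atp5e, the epsilon subunit of the ATP synthase stalk, was at 391, 379, 462 and 433 CPM in WT and 391, 351, 457 and 389 CPM in GFAP-IL6 libraries at 50 ng. At 0.5 ng it was at 662, 650.2, 958 and 966 CPM in WT and 614, 566, 722 and 716 CPM in GFAP-IL6 libraries. All 8 libraries at 0.5 ng were above all 8 at 50 ng, with a log2 fold change of 0.90 ± 0.12 (SE) and an adjusted p of 2.48e-04 by edgeR. At 1 ng the change was 0.47 ± 0.11 (SE), adjusted p = 0.0261, a call lost in 7 of 15 alternative fits, 6 of them with 1 replicate left out. Atp5j2, subunit f, ran from 420.3 through a median of 582 to 675 CPM at 50 ng, from 768 through a median of 812 to 949.8 CPM at 1 ng and from 668 through a median of 819 to 952 CPM at 0.5 ng. Its libraries at 1 ng all lay above those at 50 ng, with changes of 0.62 ± 0.10 (SE) at 1 ng and 0.58 ± 0.11 (SE) at 0.5 ng and adjusted p of 7.74e-04 and 0.00615 by edgeR.

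A further 3 ATP synthase genes passed the test at 1 of the inputs. Atp5f1, subunit b, changed by 0.48 ± 0.12 (SE) at 1 ng, adjusted p = 0.0334 by edgeR. Atp5d, the delta subunit, changed by 0.54 ± 0.11 (SE) and Atp5g1 by 0.48 ± 0.12 (SE) at 0.5 ng, with adjusted p of 0.00897 and 0.0339 by edgeR. The call of Atp5f1 was lost in 7 of 15 alternative fits and that of Atp5g1 in 9, among them 6 and 7 of the 8 that left out 1 replicate, and limma voom. Their catalytic partners had smaller values, Atp5a1 of 0.17 ± 0.11 (SE) and Atp5b of 0.06 ± 0.11 (SE) at 0.5 ng, neither called.

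In complex IV, Cox7c ran from 492 through a median of 627 to 726 CPM at 50 ng, from 494 through a median of 869.8 to 1126 CPM at 1 ng and from 712 through a median of 875 to 1182 CPM at 0.5 ng. The libraries at both lower inputs overlapped with those at 50 ng, with changes of 0.53 ± 0.11 (SE) and 0.60 ± 0.11 (SE) and adjusted p of 0.0121 and 0.00438 by edgeR. Cox5a, subunit 5a of the complex, changed by 0.52 ± 0.09 (SE) and 0.41 ± 0.11 (SE) at these inputs, adjusted p = 0.00269 and 0.0409. Cox6a1 and Cox6b1 changed by 0.36 ± 0.09 (SE) and 0.40 ± 0.10 (SE) at 0.5 ng, adjusted p = 0.0259 and 0.0316 by edgeR. At 0.5 ng the calls of Cox5a, Cox6a1 and Cox6b1 were lost in 10, 8 and 9 of the 15 alternative fits, among them 8, 7 and 7 of the 8 that left out 1 replicate, and limma voom. The call of Cox7c at 1 ng was lost in 4 of those 8. The most abundant subunit, Cox4i1, did not follow: its WT values were 2698, 2418, 2839.7 and 2395 CPM at 50 ng, 3121, 2868, 3380.5 and 3072 CPM at 1 ng and 2058, 2317, 2107 and 1819 CPM at 0.5 ng, with the highest group mean at 1 ng and the lowest at 0.5 ng. The log2 fold changes were 0.32 ± 0.09 (SE) at 1 ng and -0.25 ± 0.10 (SE) at 0.5 ng, not called.

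In complex I, Ndufab1, the mitochondrial acyl carrier protein, ran from 95.2 through a median of 139 to 177 CPM at 50 ng, from 161 through a median of 249.8 to 336 CPM at 1 ng and from 81.3 through a median of 198 to 277 CPM at 0.5 ng. The libraries at 1 ng overlapped with those at 50 ng, with a change of 0.93 ± 0.14 (SE) with an adjusted p of 3.32e-04 by edgeR, and its value was 0.55 ± 0.19 (SE) at 0.5 ng, adjusted p = 0.135, not called. Ndufb4 ran from 36.9 through a median of 55.9 to 75.1 CPM at 50 ng and from 68.6 through a median of 91.8 to 145 CPM at 1 ng, a change of 0.95 ± 0.18 (SE), adjusted p = 0.00479 by edgeR. Ndufa3 ran from 478 through a median of 643 to 709 CPM at 50 ng and from 675 through a median of 1034 to 1316 CPM at 0.5 ng, a change of 0.73 ± 0.13 (SE), adjusted p = 0.00436 by edgeR. Its 3' end overlaps Tfpt on the opposite strand, as that of Ndufb2 overlaps Braf and that of Cox5a overlaps Gm26631. Ndufc1 was called at both inputs, with 0.53 ± 0.13 (SE) at 1 ng and 0.65 ± 0.12 (SE) at 0.5 ng, adjusted p = 0.0346 and 0.00474. Ndufb2 and Ndufc2 (the latter named after its value was seen) were called at 0.5 ng, by 0.57 ± 0.13 (SE) and 0.47 ± 0.12 (SE), adjusted p = 0.0138 and 0.0396 by edgeR. The calls of Ndufc1 at 1 ng and Ndufc2 at 0.5 ng were each lost in 7 of the 8 fits that left out 1 replicate.

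Ndufs5, an accessory subunit of complex I (chr4:123712710-123718202, minus strand, GRCm38), was the 1 gene called lower at 1 and at 0.5 ng. It was at 227, 175, 185 and 183 CPM in WT and 205, 191, 170.4 and 109 CPM in GFAP-IL6 libraries at 50 ng. At 1 ng it was at 117, 120.1, 63.4 and 100.1 CPM in WT and 81.4, 53.6, 69.7 and 87.5 CPM in GFAP-IL6 libraries. At 0.5 ng it was at 101, 78.0, 97.2 and 96.6 CPM in WT and 46.8, 37.3, 92.5 and 96.6 CPM in GFAP-IL6 libraries. At 0.5 ng the 8 libraries lay below all 8 at 50 ng, and at 1 ng the overlap came from GFAP-IL6 replicate 4, the lowest at 50 ng. The log2 fold changes were -0.99 ± 0.17 (SE) and -1.09 ± 0.20 (SE), adjusted p = 0.00125 and 0.00474 by edgeR, and at 10 ng -0.24 ± 0.12 (SE), adjusted p = 1. Of the 70-base windows in its last 300 transcript bases, 50.6% also occur in the processed pseudogene BC002163, so its counts are uncertain.

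**Figure D5:**
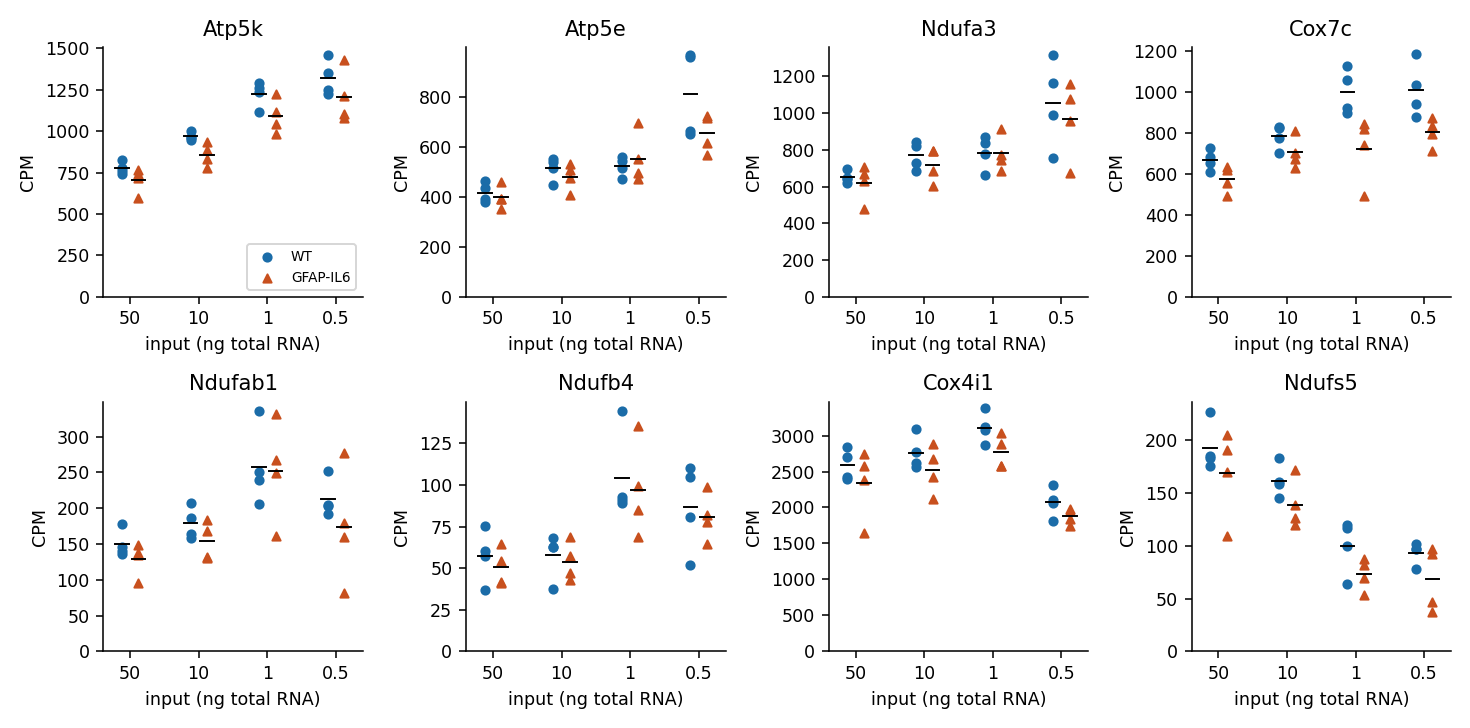
CPM (vertical axes) of 8 genes by input (horizontal axes, ng of total RNA) in WT (circles) and GFAP-IL6 (triangles) libraries; each symbol is a library and bars are means of 4. Atp5k steps up at each lower input, Atp5e and Ndufa3 are highest at 0.5 ng, Ndufab1 and Ndufb4 are highest at 1 ng, Cox4i1 is lowest at 0.5 ng and Ndufs5 falls.

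Counting genes whose 8 values did not overlap with the 8 values at 50 ng, 4 lay above at 1 ng (Cox5a, Atp5e, Atp5j2 and Atp5k), as did 0.292% of all genes tested. At 0.5 ng 4 lay above (Atp5g1, Atp5e, Cox6b1 and Atp5k), against 0.245% of all genes, and 2 below (Ndufs5 and Atp5g2), against 0.903%. Atp5g2 had 6.09, 6.77, 2.504 and 5.84 CPM in WT libraries at 50 ng and 0.832, 2.17, 0.772 and 1.52 CPM at 0.5 ng, which are 1 to 4 counts per library at the lower input, and its change of -2.10 ± 0.72 (SE) was not called, adjusted p = 0.131. The group means of 17 of the 92 genes rose at every step from 50 to 0.5 ng and those of 9 fell at every step, which is 18.5% and 9.78%, against 6.27% and 11.3% of the 13471 genes above 1 CPM at 50 ng.

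The mitochondrially encoded subunits of the same complexes had values in the other direction. Of 13 listed, 8 were tested. At 1 ng, 8 of 8 tested had a log2 fold change below 0 and 4 were called lower (mt-Nd1, mt-Nd2, mt-Co1 and mt-Nd3). At 0.5 ng 8 of 8 were below 0 and 2 were called (mt-Nd1 and mt-Nd3). Of all genes tested, 51.9% and 55.6% were below 0 at 1 and 0.5 ng, and 0.425% and 1.6% were called lower. The ratio of counts on nuclear subunits to counts on mitochondrially encoded subunits was 0.758, 0.709, 0.764 and 0.694 in WT libraries at 50 ng and 1.004, 1.04, 1.04 and 0.969 at 0.5 ng. In GFAP-IL6 libraries it was 0.725, 0.746, 0.744 and 0.543 at 50 ng and 0.851, 1.02, 0.946 and 0.964 at 0.5 ng. In both genotypes every library at 0.5 ng had a higher ratio than every library at 50 ng. Hemoglobin genes of a 4-gene blood marker list were called higher, 3 of 3 tested at 1 ng and 1 of the list at 0.5 ng. Of all genes, 0.779% and 0.947% were called higher at these inputs. Their relation to these changes was not tested.

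No gene of the 92 passed the test of a difference between genotypes in the response to input. In the interaction terms edgeR called 0 of 90, 87 and 88 tested genes at 10, 1 and 0.5 ng against 50 ng, as DESeq2 and limma voom did, where edgeR called 0.0% of all genes at each input. Under an unadjusted 0.05 there were 0, 0 and 2 (all genes 1.38%, 4.17% and 6.65%), the 2 being Atp5s with 2.24 ± 0.92 (SE) and Ndufaf7 with 1.36 ± 0.61 (SE), adjusted p = 0.565 and 0.677 by edgeR. The median interaction over the tested genes was 0.02, 0.07 and 0.02.

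Most of the 92 genes were still detected at the lowest inputs. From 50 down to 0.5 ng, 88, 87, 84 and 81 of them were above 1 CPM in all 8 libraries, and Cox4i2 and Cox7b2 had 0 counts in all 8 at 0.5 ng. Above 1 CPM, 89.4 ± 0.518 (SD, n = 8) of them were detected per library at 50 ng. The values were 89.6 ± 1.06 at 10 ng, 86.9 ± 1.64 at 1 ng and 85.6 ± 1.51 at 0.5 ng, where all genes above 1 CPM numbered 13252, 13125, 11161 and 9985. After thinning each library to 261378 counts and asking for at least 1 count, the numbers were 87.6, 87.8, 86.5 and 85.1. The coefficient of variation was taken within each genotype (n = 4 libraries) and averaged over the 2 genotypes. Among the 74 genes above 100 CPM, its median was 14.2%, 10.8%, 13.6% and 15.6% from the highest input to the lowest. In all 1826 genes above 100 CPM it was 15.4%, 13.4%, 21.9% and 28.97%. The 50 ng value of the 92 genes includes GFAP-IL6 replicate 4.

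Genes of neighbouring pathways were read from lists by the same fits. At the 4 genotype comparisons 0 genes of the assembly factor, electron carrier, citric acid cycle, glycolysis or mitochondrial biogenesis lists were called. At 50 ng, 12 of 13 citric acid cycle genes and 12 of 12 electron carrier genes had a log2 fold change below 0, with medians of -0.22 and -0.24. Glycolysis genes also went lower, 14 of 16 with a median of -0.16, against 4 of 11 biogenesis regulators with a median of 0.18. Of the complex IV assembly list 16 of 19 were below 0, and of the other complex I assembly list 7 of 8. Of all genes tested there, 50.4% were below 0. Without GFAP-IL6 replicate 4 the numbers below 0 were 11 of 13 citric acid cycle, 10 of 12 electron carrier and 5 of 11 biogenesis genes. Their medians were -0.06, -0.06 and 0.09. For glycolysis it was 9 of 16 with a median of -0.01, for complex IV assembly 11 of 19 and for other complex I assembly 5 of 8. In the input comparison the called genes of the assembly lists all rose, given here on the log2 scale. At 1 ng they were 1 of 6 for complex III (Uqcc2, 0.65) and 1 of 19 for complex IV (Cox17, copper delivery, 0.86). At 0.5 ng they were 1 of 6 for complex III (Uqcc2, 0.58) and 2 of 18 for complex IV (Cox20, 0.83, and Pet100, 0.83). Of the list of complex V assembly and regulation genes, 1 of 3 was called at 0.5 ng (Usmg5, 0.46). Of 13 citric acid cycle genes 1 rose at 0.5 ng (Mdh2, 0.63) and 0 fell. Of 16 glycolysis genes 2 fell at 1 ng (Pgk1, -1.99, and Eno1, -0.96) and 2 at 0.5 ng (Pgk1, -1.14, and Ldha, -0.78), and 0 rose. Of 11 biogenesis regulators 1 fell at 0.5 ng (Tfb1m), and of 12 electron carriers 0 were called at any input. Of all genes tested, edgeR called 0.779% higher and 0.425% lower at 1 ng, and 0.947% higher and 1.6% lower at 0.5 ng.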

How the data were processed

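Total RNA from frontal cortex was made into 3'Pool-seq libraries at 4 inputs, and 32 libraries in 8 groups were analysed. Per the study's methods, the authors demultiplexed with bcl2fastq, trimmed poly(A), aligned single-end reads with STAR 2.4 to mm10 and counted uniquely aligned reads on GENCODE vM6 genes with featureCounts. The labels' build field names hg19 instead, and the strand setting and any use of molecular identifiers are not given in the sources used here. The authors deposited raw counts per gene for each library, not divided by length, and these counts were used as deposited. Groups followed the labels. No pair of replicates within a group agreed within sampling noise, out of 48 pairs compared.

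CPM was the count per 1000000 of a library's total. Each genotype comparison was fitted on the 8 libraries of 1 input, and each input comparison on the 16 libraries of both inputs, with genotype as a covariate or, for the interaction, with genotype crossed with input. The test was edgeR 4.0.16's quasi-likelihood test with TMM and filterByExpr (R 4.3.3) across all genes, with Benjamini-Hochberg adjustment and a call at an adjusted p under 0.05. It was tried on simulated counts with planted changes larger than that of any of the 92 genes called in the main comparisons. That trial does not cover smaller changes. DESeq2 1.42.0, limma 3.58.1 (voom with a weight per input), RLE scaling, no filter, a block by replicate number, a single fit of all libraries, thinning and leaving out replicates were alternatives. Leave-one-out medians and values without GFAP-IL6 replicate 4 were added after seeing the data. Shares, ranges and correlations were computed in Python 3.11.15 (numpy 2.4.6, pandas 2.3.3, scipy 1.17.1) and drawn with matplotlib 3.10.9. Coordinates came from GENCODE vM21 (GRCm38), which matched all 92 genes on the same chromosome and strand, and promoters from RefSeq (GRCm38.p6).

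The 92 genes, the pathway lists and the marker lists were chosen with earlier results of these data known. Genes named are those called (the 10 with the lowest p if more), the 5 with the lowest unadjusted p in each comparison, the 2 highest and the lowest of each complex, catalytic subunits, isoform families and genes under 1 CPM; others are marked as named after their values were seen. One gene is not reported here. Totals of 261378 to 9840302 counts set the precision, and a count of 0 was read as allowing up to 3 counts, which covers counting error only.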

Additional observations from a re-analysis of the deposited data

Results flagged for a closer look

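In 12 of 224 groups of 4 libraries examined, 1 library lay apart by Dixon's criterion for 4 values (the gap to its neighbour set against the whole range). Chance alone gives this in about 1 in 20 groups, which is close to the share seen, and no explanation was weighed.

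GFAP-IL6 replicate 4 at 50 ng lay low for the share of complex V (0.647% of counts, the others 0.949% to 0.999%), for the 7 core subunits of complex I (0.124%, the others 0.224% to 0.234%) and for the ratio of nuclear to mitochondrially encoded subunits (0.543, the others 0.725 to 0.746). At 1 ng, GFAP-IL6 replicate 3 was high for the share of complex II (0.108%, the others 0.0762% to 0.0796%) and for Cyc1 (479 CPM, the others 318 to 338 CPM). GFAP-IL6 replicate 1 was high for complex IV at 1 ng (1.68%, the others 1.52% to 1.54%), and GFAP-IL6 replicate 3 for complex V at 0.5 ng (1.25%, the others 1.09% to 1.10%). WT replicate 2 at 1 ng was low for complex III (0.459%, the others 0.493% to 0.498%) and complex IV (1.58%, the others 1.79% to 1.80%). WT replicate 3 at 1 ng was high for Ndufb4 (145 CPM, the others 89.0 to 92.8 CPM). Cox8b was seen in 1 library each of WT at 1 ng (replicate 3, 11.2 CPM) and GFAP-IL6 at 0.5 ng (replicate 1, 10.3 CPM), with 0 counts in the other 3.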

How the results depend on the processing

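The 0 calls for genotype held in each fit tried except 2: Cox8b was called at 10 ng without GFAP-IL6 replicate 3 (leave-one-out range 0 to 1), and Atp5s was called higher in GFAP-IL6 at 0.5 ng in the single fit of all 32 libraries (1 gene). That single fit called 372 of all 12164 genes higher and 283 lower at 0.5 ng. The interaction count stayed at 0 in each fit tried. Leaving out 1 replicate gave genotype medians of -0.28 to -0.05 at 50 ng (-0.05 without GFAP-IL6 replicate 4), -0.24 to -0.11 at 10 ng, -0.14 to -0.08 at 1 ng and -0.18 to -0.12 at 0.5 ng. For input, the count at 10 ng was 2 with DESeq2 and 0 to 1 without 1 replicate (Atp5k without GFAP-IL6 replicate 4). At 1 ng it was 16 with DESeq2 and 6 to 14 without 1 replicate. At 0.5 ng it was 25 with DESeq2, 9 with limma voom, 23 in the single fit and 8 to 15 without 1 replicate. The causes of these differences were not tested. At 1 ng Cox5a, Ndufs5, Ndufab1, Atp5j2 and Atp5k were called in all 15 alternatives, and at 0.5 ng Atp5e, Cox7c, Ndufa3, Ndufc1, Atp5j2 and Atp5k were. None of these calls reversed its sign.

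With replicate numbers as a block, 15 genes were called at 10 ng, 16 at 1 ng and 16 at 0.5 ng against 50 ng, and 0 in each genotype comparison and interaction. The numbers were not taken as pairs, because the correlation of same-numbered deviations from the group means was over 0.1 in all 4 numbers only between WT at 50 and 10 ng (0.144 to 0.385), and same-numbered libraries of opposite genotype, which cannot be the same animal, also reached 0.319 at 50 ng. In GFAP-IL6 at 50 and 10 ng the correlations were 0.0420 to 0.696. Their mean was 0.407, against -0.133 for unlike numbers, and in WT it was 0.226 against -0.0744. Between genotypes at 50 ng it was 0.219 against -0.0740. The own number matched best for 4 of 4 numbers in WT at 50 ng against each lower input. In GFAP-IL6 it did so for 3, 4 and 2 of 4 at 10, 1 and 0.5 ng. Between genotypes it did so for 4 of 4 at 50, 10 and 1 ng and for 1 of 4 at 0.5 ng. The input tests leave this grouping by number out. As a hint from the data, the choroid plexus share of WT replicate 3 was 0.340, 0.304, 0.312 and 0.313% from 50 to 0.5 ng, with at most 0.0114% in the other WT libraries. Depth was lowest at 1 and 0.5 ng, where genes near 1 CPM rest on a few counts.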
